A study of Mus musculus with 8 samples.

Results

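This is an account of the H3K27me3 peaks that were less than 40 kb long and lay more than 50 kb from every listed peak of H3K36me2 and of H3K36me3, here called the far smaller peaks. They numbered 335 of the 999 H3K27me3 peaks in the deposited table (33.5%) and covered 6.27 Mb of its 33.7 Mb. The members were chosen by length and position only, and the rule used no H3K27me3 value, though it was set with earlier results of these data known.

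The cells were C3H10T1/2, a mouse mesenchymal progenitor line, and the assay was ChIP-Rx, immunoprecipitation of chromatin with foreign chromatin added as a standard, followed by sequencing. The K36M line carried a stable FLAG-HA-tagged H3.3 with methionine in place of lysine 36, and the WT line the unmutated H3.3 with the same tags. Both were used at passages 10 to 15, and each H3K27me3 library is a single one, so no difference below has a replicate check. The standard was chromatin from Drosophila S2 cells, at 5% of the amount of mouse chromatin, and the deposited values are reads per peak scaled to that spike-in. The study asked how the mutation alters methylation of H3 at lysines 36 and 27. The rows carry positions but no gene names, so the cell type could not be checked against marker genes.

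H3K27me3 is deposited by Polycomb repressive complex 2, which trimethylates lysine 27 of histone H3 over silenced genes, among them many regulators of development. Nucleosomes methylated at lysine 36 on the same H3 tail are poor substrates for this complex, and the marks largely occupy different regions. H3K36me3 is placed by SETD2 over transcribed gene bodies and H3K36me2 mainly by NSD1 and its relatives, within genes and outside them. H3.3 K36M is known to inhibit these lysine 36 methyltransferases. Far smaller peaks are thus H3K27me3 sites with no listed H3K36 domain nearby in which to follow the mark. The deposited lists hold 999 H3K27me3, 1691 H3K36me2 and 4999 H3K36me3 peaks. Whether they hold every enriched region was not tested, so distances and gaps here are to listed peaks only.

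The far smaller peaks were between 1.6 and 39.8 kb long, with a median of 17.8 kb and quartiles of 9.5 and 28.4 kb. Their median distance to the nearest listed H3K36 peak was 117 kb and the largest was 1782 kb. That nearest peak was H3K36me3 for 287 of them and H3K36me2 for 48. They were found on all autosomes and on chromosome X, with 34 on chromosome 2, 33 on chromosome 1, 31 on chromosome 5 and 3 on chromosome 18. Of all H3K27me3 peaks under 40 kb, the far ones made up 83.3% on chromosome X, 77.8% on chromosome 13 and 66.0% on chromosome 1, but 32.9% on chromosome 15 and 30.8% on chromosome 16. If 1 step of the deposited values is 1 read, the median far smaller peak held 553 reads in K36M and 840 in WT, while the lowest values, from 2 different peaks, were 55 reads in K36M and 93 in WT. The 95% intervals given for ratios rest on those reads and cover counting error only.

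Most far smaller peaks kept an H3K27me3 level in K36M close to that in WT, but those that lay apart were mostly lower. Their total was 51150.3 normalized reads in K36M and 54758.5 in WT, a ratio of 0.934. The ratio over all 999 peaks was 0.953. The steps of the 2 libraries are known to 2 decimals only, and if they were rounded the ratio for the far smaller peaks could be anything from 0.891 to 0.979, so a few percent cannot be resolved on this scale. The median log2 ratio was −0.072, with quartiles of −0.32 and 0.13, against −0.084 over all peaks with quartiles of −0.28 and 0.11. A higher value in K36M was found in 127 far smaller peaks (37.9%), close to the 37.5% of all listed peaks. With both libraries scaled to the same total, the count was 166 (49.6%, against 47.9% of all listed peaks), and rounded steps allow 107 to 165, so how many peaks lay above or below WT depended on the scale.

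Larger differences were unevenly divided. In K36M, values lower by 1.5-fold or more were present in 41 far smaller peaks (12.2%), where the background over all listed peaks was 8.11%. At least 1.5-fold higher values were found in 8 (2.39%), against a background of 3.40%. A pseudocount of 41.0 normalized reads, the 5th percentile of all values, left 21 lower (6.27%, against 4.204% of all listed peaks) and 2 higher (0.597%, against 1.80%). At 2-fold without it, the counts were 9 lower and 1 higher, with backgrounds of 1.70% and 0.701%. As deposited, 286 peaks (85.4%) lay within 1.5-fold. The counting interval of the ratio excluded 1 in all 49 peaks past 1.5-fold. Their selection and depth, at least 55 reads in K36M and 116 in WT, fix this, so it adds nothing to the calls. Over all far smaller peaks the interval lay below 1 in 132 (39.4%, background 42.3%), above 1 in 64 (19.1%, background 22.1%) and included 1 in 139. The log2 ratios had an SD of 0.38, and counting error alone would give 0.098. Variation between cultures and precipitations also enters this spread and was not measured.

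The levels spread more widely in K36M than in WT. Density, in normalized reads per kb of peak, had a median of 8.18 in K36M and 8.83 in WT. In K36M the peak at the 10th percentile had 5.80 normalized reads per kb and that at the 90th 11.1, a 1.92-fold range. In WT the same percentiles were 7.25 and 11.0, a 1.52-fold range. Densities of single peaks ran from 3.55 to 26.97 per kb in K36M and from 5.48 to 16.1 in WT. Over all 999 peaks the ranges between these percentiles were 1.89-fold in K36M and 1.56-fold in WT, so the wider spread was not particular to the far smaller peaks. The library in which the peaks were called is not given in the sources used here. Calling them in 1 library can narrow the range of densities in that library and affect the balance of lower and higher ratios. Neither was tested.

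**Figure D1:**
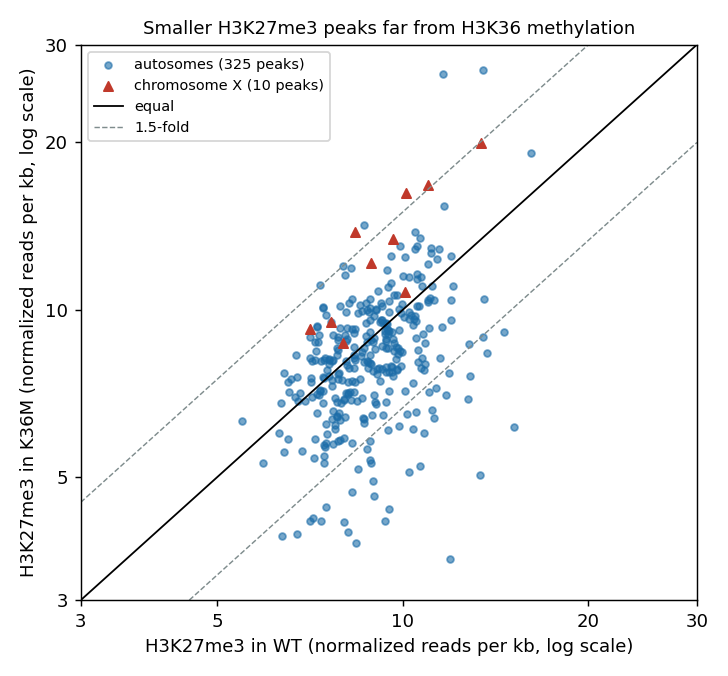
H3K27me3 density of each of the 335 far smaller peaks in K36M (vertical axis) against WT (horizontal axis), both in normalized reads per kb on log scales. Each point is 1 peak, the solid line marks equal values and the dashed lines 1.5-fold differences. More points lie under the lower dashed line (41) than over the upper one (8), and all 10 peaks of chromosome X lie above the line of equality.

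Positions are those of mm9 as deposited. Regions with clear differences were named among the 168 far smaller peaks whose mean of both libraries was at or above the median of 152 normalized reads. The lowest ratio was at chr15:41028000-41064199, a 36.2 kb peak with 138 normalized reads in K36M and 304 in WT, a ratio of 0.454 (interval 0.411 to 0.501). A 24.0 kb peak at chr9:32135600-32159599 had 111 normalized reads in K36M and 216 in WT, a ratio of 0.514 (0.460 to 0.575). Chromosome 17 gave 2 of the 6 lowest, and these are far apart. The first, at chr17:67742600-67770999, had 118 normalized reads in K36M and 228 in WT, and the second, at chr17:9745200-9778799, had 165 in K36M and 301 in WT. The remaining 2 were a peak at chr4:80349600-80385599, with 150 normalized reads in K36M and 265 in WT, and a 22.6 kb peak at chr12:15510200-15532799, with 144 in K36M and 254 in WT. The 6 ratios spanned 0.454 to 0.569, and in 4 of the 6 the nearest listed H3K36 peak was H3K36me2, the mark that is nearest for 48 of the 335.

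The lowest ratios among all 335 peaks came from shorter peaks, named here after their values were seen. A 6.0 kb peak at chr15:41069600-41075599, which begins 5.4 kb after the lowest region named above, had 21.3 normalized reads in K36M and 71.5 in WT, a ratio of 0.298 (0.232 to 0.379). A pair on chromosome 6 followed. The member at chr6:40943000-40949999 had 35.4 normalized reads in K36M and 93.4 in WT, and the one at chr6:40915800-40921199 had 33.3 in K36M and 81.9 in WT. The ratios of the pair were 0.379 (0.311 to 0.458) and 0.406 (0.331 to 0.495). In WT both were among the dense far smaller peaks, at 13.3 and 15.2 normalized reads per kb, and in K36M they had 5.05 and 6.16.

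Among the same 168 peaks, the 6 highest ratios were on chromosomes 8 and X. The peak at chr8:19853800-19885599 had 858 normalized reads in K36M and 429 in WT, a ratio of 2.00 (1.90 to 2.11). It was also the densest far smaller peak, with 26.97 normalized reads per kb in K36M and 13.5 in WT, and it lay 52.4 kb from the nearest H3K36me3 peak, close to the limit of the choice. The other 5 were on chromosome X. Of the 4 densest peaks by the mean of both libraries, the second was only 1.8 kb long, at chr9:105473600-105475399, with 47.8 normalized reads in K36M and 20.9 in WT, a ratio of 2.29 (1.81 to 2.92), the highest of all 335. A 2.0 kb peak at chr17:26529000-26530999 had 38.2 in K36M and 32.2 in WT, and its interval of 0.947 to 1.48 included 1.

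Compared with the peaks most like them, the far smaller peaks had more members at least 1.5-fold lower, while their medians hardly differed. The smaller peaks within 50 kb of H3K36 methylation numbered 379, of which 40 overlapped an H3K36 peak and 339 did not. The 339 had a similar median length of 17.4 kb and similar depth, with medians of 568 reads in K36M and 905 in WT. Their median log2 ratio was −0.12, which is 0.047 below that of the far smaller peaks. Values lower by 1.5-fold or more made up 12.2% of the far smaller peaks (41 of 335) and 6.49% of these (22 of 339), and higher ones by as much were seen in 8 and 6 peaks. Among peaks of 40 kb or more, 14 of the 135 that lay over 50 kb away (10.4%) were at least 1.5-fold lower, and 3 of the 134 that lay within 50 kb without overlap (2.24%). These shares compare single libraries and carry no test. Each peak was counted separately, though close peaks may be parts of 1 domain. Both chr15:41028000-41064199 and chr15:41069600-41075599, for example, are among the 41. The gap between far and near smaller peaks had the same direction among peaks of at least 10 kb (9.35% and 5.00%), among those whose mean reached the median of all listed peaks (6.12% and 1.96%, 6 of 98 and 2 of 102), without chromosome 15 (11.2% and 5.00%), with the pseudocount (6.27% and 1.77%) and at equal totals (9.85% and 3.83%). These comparisons of shares were added after the values were seen. Among peaks whose mean reached that median, the 6.12% of the far smaller peaks was close to the 5.2% of all listed peaks (26 of 500). The excess over all listed peaks was thus smaller there than without this filter (12.2% against 8.11%).

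The 40 smaller peaks that overlapped an H3K36 peak differed in the other direction. Their median log2 ratio was 0.40, with 16 of them past 1.5-fold in the higher direction and 0 in the lower. The overlapping peaks thus hold 16 of the 22 smaller near peaks past 1.5-fold in the higher direction.

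**Figure D2:**
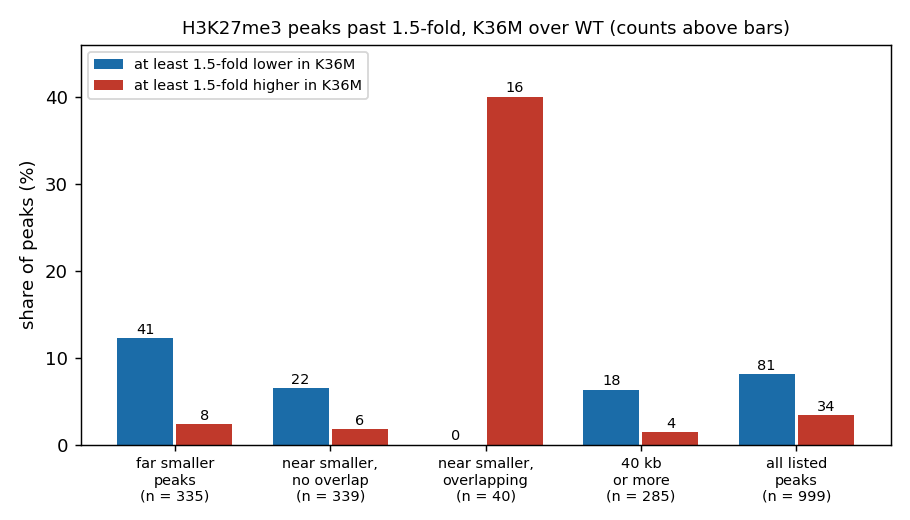
Share of H3K27me3 peaks, in percent, lower (blue) or higher (red) by 1.5-fold or more in K36M than in WT, for the far smaller peaks, 3 other sets and all listed peaks. The number above each bar is the count of peaks, and there are no error bars because each genotype has 1 library. The far smaller peaks have the tallest blue bar (12.2%) and the near smaller peaks that overlap H3K36 methylation the tallest red bar (16 of 40).

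Among the far smaller peaks, the share that was at least 1.5-fold lower was larger beyond 200 kb than within it. It was 9.09% of 132 peaks between 50 and 100 kb from H3K36 methylation, 11.5% of 113 between 100 and 200 kb, 18.5% of 65 between 200 and 500 kb, and 4 of 25 beyond 500 kb. The median log2 ratios of these bins were −0.029, −0.13, −0.18 and 0.053. The last bin holds 6 of the 10 peaks of chromosome X, and on autosomes alone its median was −0.11, with 4 of 19 peaks at least 1.5-fold lower. Peaks beyond 200 kb had a median 0.10 below those at 50 to 100 kb, and 0.15 below on autosomes. Set against bins of 50 to 200 kb, the peaks beyond 500 kb had a median 0.12 above with chromosome X included. With that chromosome, the direction with distance thus depended on the bins. On autosomes alone the medians of the 4 bins were −0.030, −0.13, −0.19 and −0.11, so the last bin was then below the first. The share of higher values, 42.4%, 31.0%, 35.4% and 52.0% over the same bins, followed no order.

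The 3 peaks farthest from listed H3K36 methylation had unlike ratios. The farthest, at chrX:50815800-50828599 and 1782 kb from H3K36 methylation, had 208 normalized reads in K36M and 130 in WT, a ratio of 1.60 (1.45 to 1.78). The next, 1554 kb away at chr6:24669600-24699399, had 211 in K36M and 203 in WT, and its interval of 0.947 to 1.14 included 1. The one after it, 1458 kb away at chr13:83852600-83872399, had 157 in K36M and 189 in WT, a ratio of 0.830 (0.750 to 0.918).

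The gap between medians was larger when the far smaller peaks were split by which H3K36 mark was nearest, a split made after the values were seen. The 48 peaks whose nearest listed H3K36 peak was H3K36me2 had −0.33 as their median log2 ratio, and for the 287 nearest to H3K36me3 it was −0.049. Of the 48, 15 (31.3%) lay past 1.5-fold in the lower direction and 0 in the higher, against 26 (9.06%) lower and 8 higher of the 287. Their K36M density was lower, with medians of 6.70 normalized reads per kb in the 48 and 8.39 in the 287, while the WT medians were 8.505 and 8.86. The distances were alike, with medians of 122 kb in the 48 and 117 kb in the 287. The 48 peaks lay on 15 chromosomes, 9 of them on chromosome 15 and 7 on chromosome 17. Within chromosomes, the difference of medians was reversed on chromosome 11 (0.29, 3 peaks) and chromosome 2 (0.15, 4 peaks). It was below 0 on the others, most of which held few of these peaks, and was −0.77 on chromosome 17. Without chromosome 15 the medians were −0.32 in the peaks nearest to H3K36me2 and −0.049 in the others.

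This difference had the same direction at each distance. Between 50 and 100 kb the median was −0.15 in 22 peaks nearest to H3K36me2 and −0.022 in 110 nearest to H3K36me3. Between 100 and 200 kb it was −0.43 in 12 and −0.096 in 101, and all 12 were lower in K36M. Beyond 200 kb it was −0.39 in 14 and −0.079 in 76. Peaks of 40 kb or more that did not overlap H3K36 methylation showed a like gap, with −0.25 in 47 peaks nearest to H3K36me2 and −0.063 in 222 nearest to H3K36me3. Smaller peaks within 50 kb and without overlap did not show it, with −0.10 in 43 and −0.13 in 296. The 48 peaks lay a median of 275 kb from H3K36me3, and the 287 a median of 117 kb. The 109 far smaller peaks with no H3K36me3 peak within 200 kb had a median of −0.16 and 23 at least 1.5-fold lower (21.1%), and the 226 with one had −0.048 and 18 (7.96%). Split by an H3K36me2 peak within 200 kb, the gap was smaller, with −0.15 in the 69 peaks that had one and −0.062 in the 266 others.

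**Figure D3:**
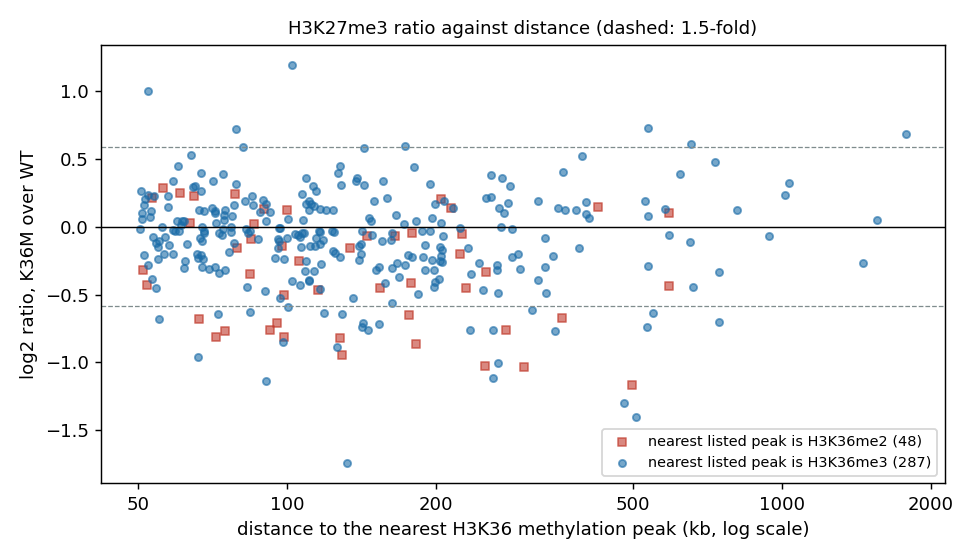
Log2 ratio of H3K27me3, K36M over WT, of each far smaller peak (vertical axis) against its distance to the nearest listed H3K36 methylation peak in kb (horizontal axis, log scale). Red squares are the 48 peaks whose nearest H3K36 peak is H3K36me2, blue circles the 287 nearest to H3K36me3, and dashed lines mark 1.5-fold. Of the red squares 15 lie below the lower dashed line and 0 above the upper one.

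The H3K36 peaks nearest to the far smaller peaks were lower in K36M by about as much as the rest of their tables. The nearest H3K36me2 peaks had a median log2 ratio of −2.04, against −2.07 over all 1691 H3K36me2 peaks. The nearest H3K36me3 peaks had −1.69, against −1.71 over all 4999. All of these nearest peaks were lower in K36M. Across the 335 far smaller peaks, the H3K27me3 ratio and that of the nearest H3K36me2 peak had Pearson's r = 0.28 and Spearman's rho = 0.26, and with values centred on each chromosome's median rho was 0.22. With the nearest H3K36me3 peak r was 0.28 and rho 0.18, and 0.082 after centring. These are descriptions across sites, in which several peaks share a nearest H3K36 peak (232 distinct H3K36me2 peaks and 287 H3K36me3 peaks) and all share the same libraries.

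Ratios differed with signal density, and their medians differed little with length. In the 112 densest peaks by the mean of both libraries, above 9.25 normalized reads per kb, the median log2 ratio was 0.048 and 62 were higher in K36M. In the 112 least dense, under 7.88 per kb, it was −0.22, and 27 were higher. The densest peaks had medians of 10.2 normalized reads per kb in K36M and 10.4 in WT, and the least dense 6.68 in K36M and 7.63 in WT. Within the 112 longest peaks the medians were −0.041 in the densest and −0.30 in the least dense, and within the 112 shortest 0.16 and −0.21. The same split gave 0.041 and −0.23 in peaks of 40 kb or more. The mean contains the K36M value, which varies more than the WT value, so part of this relation is built into the split. Over the WT value alone the direction was the opposite, with a Spearman's rho of −0.20 between WT density and log2 ratio, and the WT value is the denominator of the ratio. The longest peaks, from 23.8 kb up, had a median of −0.092 and the shortest, up to 12.4 kb, −0.087. The SD of log2 ratios was 0.35 in the longest peaks and 0.47 in the shortest, where counting error alone would give 0.062 and 0.14.

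The ratios of the far smaller peaks varied between chromosomes. On chromosome X all 10 were higher in K36M, with a background of 37.5% over all listed peaks, and their median log2 ratio was 0.46. Their log2 ratios ran from 0.096 to 0.73. Their total was 2692 normalized reads in K36M and 1960 in WT, and the median density was 12.8 per kb in K36M and 9.25 in WT. The peak at chrX:100184800-100217599 had 453 normalized reads in K36M and 274 in WT, a ratio of 1.65 (1.54 to 1.77). Another, at chrX:100038600-100061999, had 393 in K36M and 257 in WT, a ratio of 1.53 (1.42 to 1.64). The peak at chrX:13014600-13032199, among the 4 densest, had 352 in K36M and 235 in WT, a ratio of 1.495. The one at chrX:148841600-148872999 had 381 in K36M and 279 in WT, a ratio of 1.37. The counting interval of the lowest X ratio, 1.07, was 0.975 to 1.17 and included 1. For the other 9 H3K27me3 peaks of chromosome X the median was 0.52, with 7 higher. H3K36me2 and H3K36me3 peaks of this chromosome had medians of −1.58 and −1.41, above the −2.07 and −1.71 of their tables. The part of that shift in the H3K27me3 result was not tested.

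Of the 19 chromosomes with at least 5 far smaller peaks, 15 had a median below 0 as deposited and 4 above it. This tally depended on the scale. At equal totals every log2 ratio is 0.069 higher, more than the distance from 0 of several medians. They include those of chromosomes 2 (−0.031), 5 (−0.063), 6 (−0.057), 9 (−0.029) and 17 (−0.00087). As deposited, the medians above 0 were those of chromosomes X, 13 (0.19, 7 peaks), 19 (0.12, 11 peaks) and 8 (0.080, 24 peaks). Chromosome 7 had the lowest median, −0.32 in 5 peaks, and chromosome 1 followed with −0.28 in 33, of which 27 were lower in K36M. On chromosome 15 the median was −0.25 in 23 peaks, and 6 of these were at least 1.5-fold lower (background 8.11% of all listed peaks). The other 96 listed H3K27me3 peaks of chromosome 15 had a similar median of −0.22. The other listed H3K27me3 peaks of a chromosome did not always lie on the same side, with medians of −0.057 in 43 on chromosome 8 and −0.013 in 24 on chromosome 19. The 41 peaks at least 1.5-fold lower were spread over 16 chromosomes. The 8 at least 1.5-fold higher were on 5, and 3 of them were on chromosome X. Without chromosome X, the counts were 41 lower (12.6%, against 8.27% of all listed peaks) and 5 higher (1.54%, against 2.96%) of 325.

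**Figure D4:**
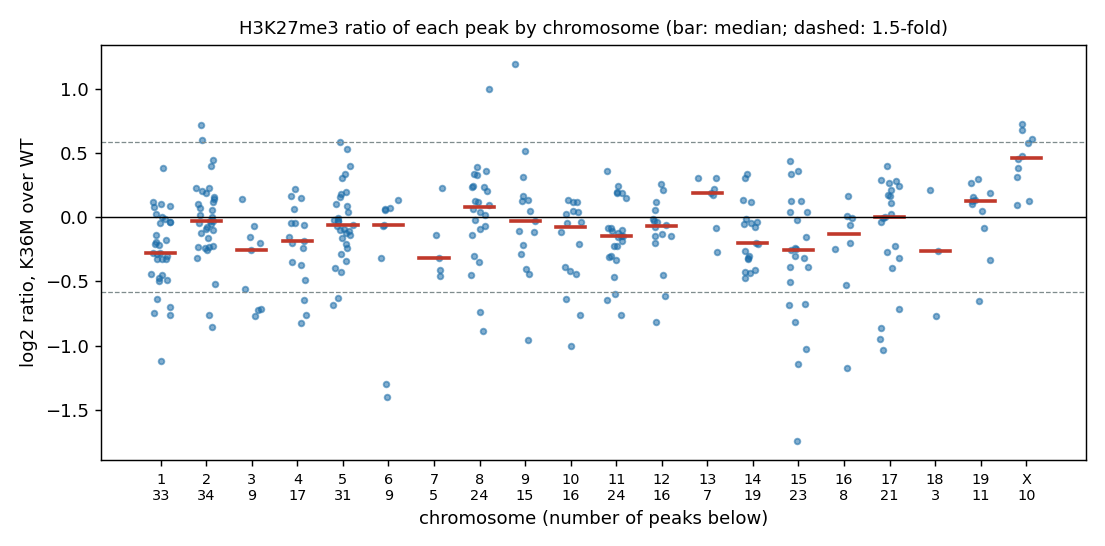
Log2 ratio of H3K27me3, K36M over WT, of each far smaller peak (points) by chromosome (horizontal axis, with the number of peaks under each name). Red bars are medians over the peaks of a chromosome and dashed lines mark 1.5-fold. All 10 points of chromosome X lie above 0, and 27 of 33 on chromosome 1 lie below it (624 of all 999 listed peaks do).

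Neighbouring H3K27me3 peaks had similar ratios. Another listed H3K27me3 peak lay within 50 kb of 98 far smaller peaks (29.3%), and the nearest one was over 1 Mb away for 97 (29.0%). The 98 differed from that neighbour by a median of 0.15 on the log2 scale, regardless of sign, and 74 of them lay on the same side of 0 as it did. The 97 differed from theirs by a median of 0.32, and 55 lay on the same side. The side of 0 depends on the scale. With 37.5% of all listed peaks higher in K36M, unrelated peaks would often share a side too. Between the far smaller peaks and these nearest neighbours, Pearson's r was 0.81 in the 98 and 0.29 in the 97. It is a description, since both peaks of a close pair can be counted and neighbours may be parts of 1 domain. Counted once each, 31 pairs of far smaller peaks were adjacent within 50 kb, and 2 of them differed by at least 1.5-fold between the members' ratios. In 41 adjacent pairs 50 kb to 1 Mb apart, 0 differed by that much, and in 69 pairs more than 1 Mb apart 17 did. The median difference was 0.19 in the pairs within 50 kb, 0.19 in those up to 1 Mb and 0.33 in those beyond.

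Groups of at least 4 far smaller peaks with gaps of at most 500 kb were few. One of 4 peaks on chromosome 2, at chr2:18317800-18712199, was lower in all 4, with a total of 574 normalized reads in K36M and 673 in WT and log2 ratios of −0.85 to −0.13. One of 4 peaks on chromosome 11, at chr11:49413000-49828199, had a total of 537 in K36M and 547 in WT, with log2 ratios from −0.15 to 0.19. There were 223 far smaller peaks with no other listed far smaller peak within 500 kb.

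**Figure D5:**
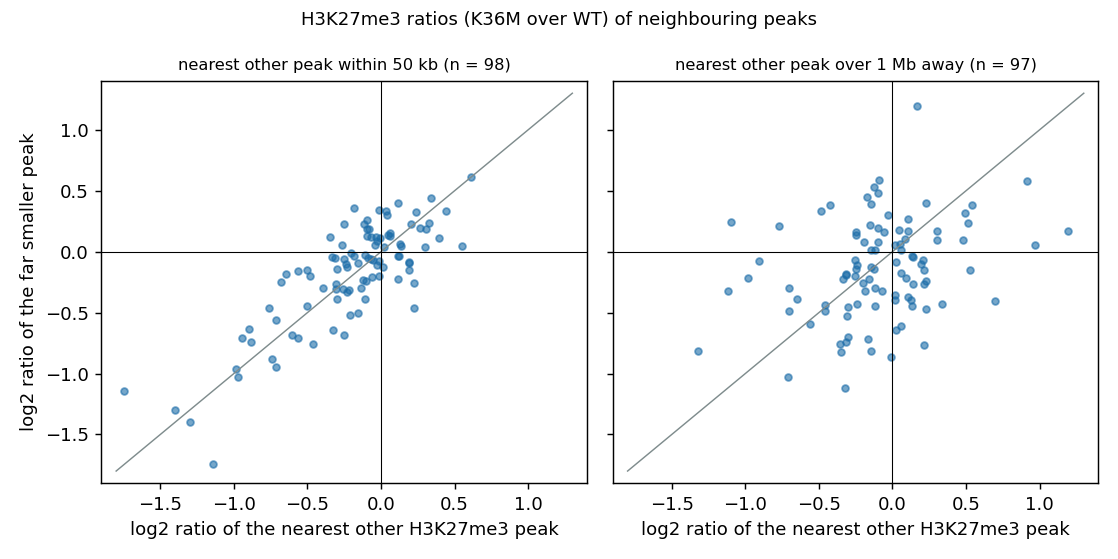
Log2 ratio of H3K27me3, K36M over WT, of far smaller peaks (vertical axis) against that of the nearest other listed H3K27me3 peak (horizontal axis), for the 98 with that peak within 50 kb (left) and the 97 with it over 1 Mb away (right). Each point is 1 far smaller peak and the grey diagonal marks equal ratios. Points on the left follow the diagonal more closely (median difference 0.15) than those on the right (0.32).

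At the limits of the choice, the 4 longest far smaller peaks, of 38.8 to 39.8 kb, had ratios of 0.939 to 0.999. The 3 shortest far peaks above the length limit, of up to 40.2 kb, had ratios of 1.36, 0.938 and 1.28. At the distance limit, the 4 nearest to H3K36 methylation, at 50.4 to 51.0 kb, had ratios of 0.990 to 1.20. The 4 smaller peaks just within the limit, at 49.6 to 50.0 kb, had ratios of 0.841 to 1.23.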

How the data were processed

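The deposited values are a signal, reads per peak, in 1 table per mark with 1 column per genotype. The column headers call them Rx-Normalized, read here as scaled by the authors to the Drosophila spike-in. Per the submitters' processing notes, Bowtie 1.0.0 was used, with mm9 and dm6 as builds. Not given in the sources used here are the peak caller, its library and how the factor was computed. Positions are printed as deposited and taken as mm9. All starts are multiples of 200, as in windows counted from 0. The annotation used here is of another build, so no gene was named and no sequence printed.

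All values of a column are whole multiples of 1 step, 0.26 for H3K27me3 in K36M and 0.18 in WT. A step was taken as 1 read, which the files do not state. Exact Clopper-Pearson 95% intervals of ratios use these reads.

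The distance of a peak is the number of bases to the nearest listed H3K36me2 or H3K36me3 peak. K36M was divided by WT with no pseudocount, since no value was 0. With 1 library per genotype differences are given without tests or p-values. Named regions were the 6 lowest and 6 highest ratios among far smaller peaks with a mean at or above their median, the 4 densest, the 3 farthest, 3 on each side of its limits (ties included) and groups of at least 4 neighbours. The members, lists and splits were chosen with earlier results of these data known. Input libraries (2) were left out. The calculations were tested on simulated counts. Python 3.11.15, numpy 2.4.6, pandas 2.3.3, scipy 1.17.1 and matplotlib 3.10.9 were used.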

Additional observations from a re-analysis of the deposited data

How the results depend on the processing

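No paired analysis was possible because each genotype has 1 library, so leaving out a replicate was not possible either. The small differences in level rest on the spike-in scale. With both libraries at the same total, the median log2 ratio of the far smaller peaks was −0.0028 and the total ratio 0.980. Rounded factors, added after the data were seen, allow medians of −0.14 to −0.0038 and total ratios of 0.891 to 0.979. At the lowest ratio, 5 peaks were at least 1.5-fold higher (1.49%, against 2.60% of all listed peaks). Beyond 100 kb in place of 50 kb, 203 peaks remained, with a median of −0.13 and a total ratio of 0.918. Of these, 71 were higher in K36M (background 37.5% of all listed peaks), 5 of them by at least 1.5-fold (background 3.40%). The difference of the medians was then −0.041 to the nearer smaller peaks and −0.049 to peaks of 40 kb or more. A pseudocount at the 5th percentile, 41.0 normalized reads, gave a total ratio of 0.947, 21 peaks at least 1.5-fold lower (6.27%, against 4.204% of all listed peaks) and 2 higher. Keeping peaks whose mean reached the median of all listed peaks left 98 members, with a total ratio of 0.958 and 32 higher. Of the 98, 6 were at least 1.5-fold lower (6.12%, against 5.2% of all listed peaks so filtered) and 3 higher (3.06%, against 2.8%). The density difference was then 0.087 in place of 0.27. At 2-fold, 9 were lower and 1 higher. On autosomes the total ratio was 0.918 and 5 peaks were at least 1.5-fold higher (1.54%, against 2.96% of all listed peaks). The total ratio was 0.943 without chromosome 15, 0.945 below 30 kb and 0.949 below 50 kb. Among peaks of at least 10 kb, 23 of 246 were at least 1.5-fold lower (9.35%, against 6.57% of all listed peaks) and 5 higher (2.03%, against 2.43%). Peaks beyond 500 kb, those of chromosome X included, had a median 0.12 above those at 50 to 200 kb. Fewer peaks enter under the filters; otherwise the cause was not tested. The other 91 values moved by less than the interval of the value reported, or stayed within 1.5 times a count. Short peaks are limited by depth, with 55 reads in K36M in the shallowest. The error between cultures was not measured.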
